A study of Mus musculus with 35 samples.

Results

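Eicosanoid synthesis and breakdown was followed through 10 genes, chosen by symbol as the core lipoxygenase, leukotriene, cyclooxygenase and prostaglandin genes of macs: *Alox5*, *Alox5ap*, *Lta4h*, *Ltc4s*, *Alox15*, *Ptgs1*, *Ptgs2*, *Tbxas1*, *Hpgds* and *Hpgd*. All 10 were found among the 54735 gene symbols of the count files, and all 10 were among the 13421 genes that passed 1 count in 1e+06 (CPM) in at least 5 samples. Bulk RNA-seq covered 35 samples of macs, gated on CLEC4F and TIM4 from the livers of male C57Bl/6J mice. The mice had been placed at 5 weeks of age on a standard diet (SD) or on a western diet (WD), which leads to metabolic-associated fatty liver disease (MAFLD), and no group carried a transgene. CLEC4F+TIM4+ resident Kupffer cells (ResKCs), which the labels call Kupffer cells, had been taken after 12 weeks on diet (7 samples on SD, 5 on WD) and after 24 weeks (6 on each). Monocyte-derived Kupffer cells (moKCs, CLEC4F+TIM4-, 5 samples) and CLEC4F- macs (CLEC4F-TIM4-, 6 samples) came from the WD at 24 weeks, a time with no SD sample of either population. In the 12-week WD group, 1 label field gives the diet as standard while title and description give it as western, and these 5 samples were treated as WD.

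Eicosanoids are short-lived lipid signals made from arachidonic acid that phospholipases free from membranes. Cyclooxygenases turn it into prostaglandin H, from which terminal synthases make prostaglandin D, prostaglandin E, prostacyclin or thromboxane, whereas lipoxygenases turn it into leukotrienes or into hydroxylated fatty acids. In the liver, KCs are known as a main source of prostaglandins and thromboxane, which act on the tone of sinusoids and on hepatocyte metabolism, and they also take up and inactivate prostaglandins.

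The promoters of *Ptgs1* and *Hpgd*, which had the highest levels per length and fell together from KCs to CLEC4F- macs, are shown with that of *Ptgs2*, the other cyclooxygenase gene, which ran the opposite way. Each is the stretch of 250 bases before the RefSeq start in GRCm38.p6, read on the strand of the gene and here the plus strand for all of them, at chr2:36230176-36230425 for *Ptgs1*, chr8:56294302-56294551 for *Hpgd* and chr1:150099781-150100030 for *Ptgs2*. Capitals mark every match on either strand to GAGGAA (the core of PU.1 and SPI-C sites), TGCTGA (the MAF core), TGANTCA (AP-1), TGACGT (the CRE core), TTGCNNAA (C/EBP) or TATAAA.
Ptgs1: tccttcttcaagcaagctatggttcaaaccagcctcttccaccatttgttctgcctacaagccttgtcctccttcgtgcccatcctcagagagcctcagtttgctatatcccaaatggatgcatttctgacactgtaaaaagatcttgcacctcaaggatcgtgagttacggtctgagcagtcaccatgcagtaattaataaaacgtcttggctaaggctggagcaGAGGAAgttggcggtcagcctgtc
Hpgd: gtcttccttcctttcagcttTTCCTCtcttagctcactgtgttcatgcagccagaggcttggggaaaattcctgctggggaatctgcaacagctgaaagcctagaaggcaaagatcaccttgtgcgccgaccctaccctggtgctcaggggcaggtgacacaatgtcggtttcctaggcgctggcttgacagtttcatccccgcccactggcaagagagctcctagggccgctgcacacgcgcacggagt
Ptgs2: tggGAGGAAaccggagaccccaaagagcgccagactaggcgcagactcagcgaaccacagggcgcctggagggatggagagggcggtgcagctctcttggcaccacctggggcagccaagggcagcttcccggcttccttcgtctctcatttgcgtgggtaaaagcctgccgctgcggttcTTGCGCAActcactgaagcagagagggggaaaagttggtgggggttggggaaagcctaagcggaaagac
GAGGAA was found in 7 of the 8 members whose promoters were matched by symbol, *Ltc4s* being without it, and in 23.3% of 32851 promoter stretches of the same length. It was present in members that fell from ResKCs to CLEC4F- macs (*Ptgs1*, *Hpgd*, *Tbxas1*) and in members that rose (*Ptgs2*, *Hpgds*, *Lta4h*). The C/EBP letters were found in *Ptgs2* and in *Hpgds*, both higher in CLEC4F- macs, and in 9.56% of all stretches. They were not found in *Lta4h*, which was also higher in CLEC4F- macs. TGCTGA (16.1% of all stretches) and TGANTCA (6.75%) were each found in 1 member, *Tbxas1*, where the matches overlap. TGACGT was found in no member and in 6.47% of all stretches, and TATAAA only in *Tbxas1* and in 12.4%. Such matches are letters in a window and were not measured as bound sites. In the *Ptgs2* stretch, 183 bases lie in an exon of Ptgs2os on the opposite strand. In GENCODE, 178 bases of the *Hpgds* stretch, 146 of that of *Tbxas1* and 84 of that of *Ltc4s* lie in exons, of the gene itself or, for *Tbxas1*, also of Gm42962 on the opposite strand, so that both *Hpgds* matches are in exon sequence and these stretches are not all upstream of every transcript start. Promoters of *Alox5ap* and *Alox15* were not analysed here.

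Per sample, 11568590 to 15163845 reads were counted on genes, so that 3 counts of a gene correspond to 0.194 to 0.263 CPM; such floors cover counting error only. All CPM values are scaled with TMM factors, and a gene was called at an adjusted p under 0.05 in the quasi-likelihood test of edgeR, with p-values adjusted over all 13421 genes (Benjamini-Hochberg). The sort was visible in the gated genes: *Timd4* lay between 547 and 885 CPM in WD ResKCs at 24 weeks and between 2.85 and 30.3 CPM in moKCs. *Clec4f* was not absent from CLEC4F- macs, at 294 to 1539 CPM in 5 samples and 5488 CPM in replicate 4, against at least 7326 CPM in every moKC sample. The summed level of 6 KC genes was also highest in that replicate (12197 CPM, others 1295 to 5550 CPM), and without this replicate 7 members were called against ResKCs (4614 of all genes, 4433 with it) and 6 against moKCs (2592 of all genes, 2204 with it). In moKC replicate 1, the summed level of 8 neutrophil genes (3 past the filter) was 514 CPM against 11.6 to 21.8 CPM in the other 4, with *Ly6g*, *Camp* and *Ngp* at 0 in all moKC samples. Alignment names in the file headers follow 2 schemes (22 and 13 samples) of unstated meaning. The 12-week WD group holds first-scheme names only, and the 12-week SD group holds both. Some members did not overlap between schemes within a group. For example, *Ptgs2* in SD ResKCs at 12 weeks was 5.90 to 9.68 CPM in the first and 0.383 to 0.633 CPM in the second. *Alox5* in WD ResKCs at 24 weeks was 2.23 to 4.29 and 6.84 to 14.2 CPM. *Tbxas1* was lower in the first scheme in each WD group at 24 weeks. In bulk samples, fewer cells of a type and less RNA per cell cannot be told apart.

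Per kilobase of merged exons, the most abundant member over all samples was *Hpgd* (1207 CPM per kb), followed by *Ptgs1* (277 CPM per kb), *Alox5ap* (54.6 CPM per kb) and *Tbxas1* (31.3 CPM per kb). *Ltc4s* (12.6), *Alox15* (12.3), *Hpgds* (9.43) and *Lta4h* (8.85 CPM per kb) were intermediate, and *Ptgs2* (2.21 CPM per kb) and *Alox5* (1.18 CPM per kb) were lowest. Transcripts of the enzyme that starts prostaglandin inactivation and of the constitutive cyclooxygenase were thus the most abundant among the members. The order below them depends on merged exon length, which pools all transcripts of a gene. This length ran from 1014 bases (*Ltc4s*) to 9094 bases (*Tbxas1*). By CPM alone, *Tbxas1* lay above *Alox5ap*, with group means of 227 to 310 CPM against 51.7 to 107 CPM. The lowest place differed between populations, being that of *Ptgs2* in the 4 ResKC groups (0.482 to 1.04 CPM per kb, *Alox5* 1.11 to 1.57) and that of *Alox5* in moKCs (0.715) and CLEC4F- macs (1.03 CPM per kb). Among group means, *Alox15* and *Ptgs2* varied most, with 18.2-fold and 17.7-fold between the highest and the lowest group, and *Tbxas1* (1.37-fold) and *Lta4h* (1.39-fold) varied least.

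**Figure D1:**
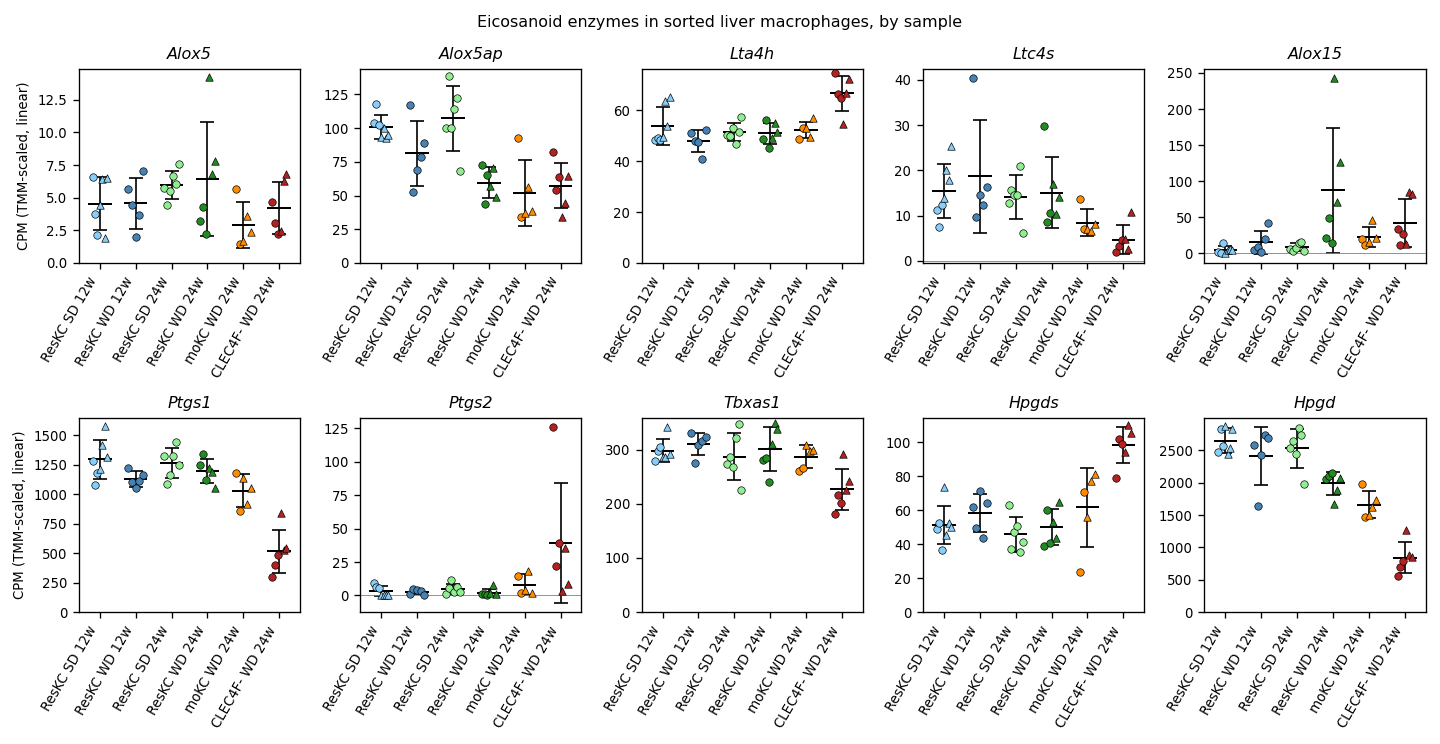
TMM-scaled CPM (linear axes from 0) of the 10 genes in each of 35 samples, by group; circles and triangles are the first and second alignment naming scheme, bars the mean and whiskers the SD. Ptgs1 and Hpgd are lowest and Hpgds and Lta4h highest in CLEC4F- macs, and Alox15 reaches 244 CPM in 1 WD ResKC sample at 24 weeks.

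The main question of the sorted populations was how recruited macs compare with ResKCs in the fatty liver. When WD ResKCs were set against CLEC4F- macs, 7 of the 10 members were called, 4 higher in ResKCs and 3 higher in CLEC4F- macs, where 33.0% of all genes were called (17.0% higher and 16.1% lower in ResKCs). Between moKCs and CLEC4F- macs, 5 members were called, 3 higher and 2 lower in moKCs, where 16.4% of all genes were called (9.34% higher and 7.09% lower). With the further limit of an absolute log2 fold change over 1, which the study uses for DEGs, 4 members remained in the former comparison (10.4% of all genes) and 0 in the latter (5.05% of all genes). Between ResKCs and moKCs, edgeR called 0 of 10 members, where 2.99% of all genes were called. DESeq2 and limma-voom called 0 as well, and 4 members were under an unadjusted p of 0.05, as were 15.9% of all genes. The median log2 difference of the members was 0.51 between ResKCs and CLEC4F- macs against -0.02 over all genes tested, and 0.21 against -0.02 between ResKCs and moKCs.

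The cyclooxygenase genes moved in opposite directions. *Ptgs1* (chromosome 2, 36230426 to 36252272, GRCm38, plus strand) encodes COX-1, the constitutive cyclooxygenase. WD ResKCs at 24 weeks had *Ptgs1* at 1054 CPM in the lowest, 1204 CPM in the median and 1342 CPM in the highest sample. The 5 moKC samples ranged from 859 to 1182 CPM. CLEC4F- macs had 297, 505 and 839 CPM (lowest, median, highest), so every CLEC4F- mac sample lay below every KC sample. *Ptgs1* was higher in ResKCs than in CLEC4F- macs by 1.21 on the log2 scale (SE 0.14, adjusted p = 2.9e-08 in edgeR) and higher in moKCs than in CLEC4F- macs by 1.00 (SE 0.15, adjusted p = 7e-06), and between ResKCs and moKCs the log2 difference was 0.22 (SE 0.15, adjusted p = 0.51). The highest CLEC4F- sample was replicate 4, the one with most *Clec4f*. The summed level of 6 platelet genes (3 of 6 past the filter), platelets being rich in COX-1, was 95.0 to 178 CPM in CLEC4F- macs and 16.8 to 100.1 CPM in WD ResKCs. Summed endothelial genes (8 of 8 detected) were at 426 to 681 CPM in CLEC4F- macs and 483 to 953 CPM in WD ResKCs, and the part of either cell type in the *Ptgs1* difference was not tested.

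*Ptgs2* (chromosome 1, 150100031 to 150108227, plus strand) encodes COX-2, the inducible cyclooxygenase, whose promoter is shown above. WD ResKCs had 0 counts of it in 1 sample, a median of 1.29 CPM and 7.63 CPM in the highest sample. The moKC samples had 14.3, 1.99, 3.97, 18.3 and 2.12 CPM. CLEC4F- macs had 3.36, 28.8 and 126 CPM (lowest, median, highest), and 5 of the 6 lay above all WD ResKC samples. ResKCs thus had less *Ptgs2*, with a log2 difference to CLEC4F- macs of -4.16 (SE 0.92, adjusted p = 0.00055 in edgeR). The size of this difference depended on single samples, being -3.32 without CLEC4F- replicate 1 (adjusted p = 0.0044) and -5.11 without ResKC replicate 5 (adjusted p = 0.0002). CLEC4F- replicate 1 also had the highest summed level of 7 lymphocyte genes, 4 past the filter (101 CPM, other CLEC4F- samples 12.9 to 21.3 CPM). The same held for 6 dendritic cell genes (172 CPM, others 21.7 to 71.5 CPM). The part of these cells in the *Ptgs2* difference was not tested. Between moKCs and CLEC4F- macs, the log2 difference was -2.26 (SE 0.88, adjusted p = 0.079), and it moved with single CLEC4F- samples, to -1.43 without replicate 1 (adjusted p = 0.35) and -2.50 without replicate 4 (adjusted p = 0.039). Between ResKCs and moKCs, it was -1.90 (SE 0.90, adjusted p = 0.29), and -2.85 to -1.37 with 1 sample left out.

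*Ptgs2* ran with immediate-early genes, which are induced within minutes and also by cell isolation. The most alike genes over the 35 samples were *Pim1* (Pearson r of log2 CPM 0.86), *Sik1* (0.86) and *Atf3* (0.84), given as a description, since these samples share groups and libraries. The summed level of 10 immediate-early and heat-shock genes, all detected, was 2172 to 10865 CPM in CLEC4F- macs and 1050 to 4945 CPM in WD ResKCs, and CLEC4F- replicate 1 was the highest in both *Ptgs2* and this sum. When their mean entered the model, the *Ptgs2* difference between ResKCs and CLEC4F- macs was -2.46 (adjusted p = 0.00094) and that between moKCs and CLEC4F- macs was -1.81 (adjusted p = 0.014). Both values are nearer 0 than without this covariate, and the part of the immediate-early response in the difference was not tested beyond this.

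*Tbxas1* and *Hpgds* encode terminal synthases that use the prostaglandin H made by the cyclooxygenases, and they also parted. *Tbxas1* (chromosome 6, 38875404 to 39084585, plus strand), the thromboxane synthase, had 240, 298 and 350 CPM in WD ResKCs and 182, 221 and 292 CPM in CLEC4F- macs (lowest, median, highest). The 5 moKC samples lay between 261 and 308 CPM, and all CLEC4F- samples other than replicate 4 (292 CPM) lay below them. *Tbxas1* was higher in ResKCs than in CLEC4F- macs by 0.41 on the log2 scale (SE 0.10, adjusted p = 0.0013 in edgeR) and in moKCs by 0.34 (SE 0.10, adjusted p = 0.019), the latter lost without moKC replicate 3 (0.31, adjusted p = 0.053), without CLEC4F- replicate 1 (0.27, adjusted p = 0.085) or without CLEC4F- replicate 3 (0.31, adjusted p = 0.051). The genes most like *Tbxas1* were *Lgmn* (r 0.88), *Il18bp* (0.87) and *Acvrl1* (0.85).

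*Hpgds* (chromosome 6, 65117293 to 65144908, minus strand), the hematopoietic prostaglandin D synthase, was at 38.8, 48.1 and 64.5 CPM in WD ResKCs and at 79.1, 100.5 and 110 CPM in CLEC4F- macs (lowest, median, highest), so these groups did not overlap. The moKC samples had 23.8, 70.5, 55.9, 77.1 and 81.0 CPM and thus spanned the gap, the lowest being replicate 1, the sample with the neutrophil genes. *Hpgds* was higher in CLEC4F- macs, with a log2 difference of ResKCs minus CLEC4F- macs of -0.97 (SE 0.20, adjusted p = 0.0002 in edgeR). For moKCs minus CLEC4F- macs the difference was -0.67 (SE 0.21, adjusted p = 0.021), and it was not called without moKC replicate 1 (-0.47, adjusted p = 0.069) or without moKC replicate 3 (-0.64, adjusted p = 0.053). *Hpgds* is also a mast cell gene, and the summed level of 7 mast cell and basophil genes (0 past the filter) was at most 1.13 CPM in CLEC4F- macs and at most 0.315 CPM in WD ResKCs, with *Ms4a2* and *Prss34* at 0 in both. Summed dendritic cell genes (5 of 6 past the filter) were at 21.7 to 172 CPM in CLEC4F- macs and at 10.1 to 21.3 CPM in WD ResKCs. From CLEC4F- replicate 1 to 6, this sum was 172, 68.0, 71.5, 21.7, 22.9 and 39.9 CPM. In the same order, *Hpgds* was 79.1, 102, 99.1, 94.2, 110 and 105 CPM. The part of dendritic cells in the *Hpgds* difference was not tested. The genes most like *Hpgds* over the 35 samples were *Echs1* (r 0.85), *Tpd52* (0.85) and *Pparg* (0.84).

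*Hpgd* (chromosome 8, 56294585 to 56321043, plus strand) encodes the NAD-dependent dehydrogenase that starts the inactivation of prostaglandins. WD ResKCs at 24 weeks had *Hpgd* at 1676, 2059 and 2145 CPM (lowest, median, highest), and the 5 moKC samples ranged from 1472 to 1978 CPM. CLEC4F- macs had 557, 820 and 1269 CPM and did not overlap with either KC population. *Hpgd* was higher than in CLEC4F- macs by 1.24 on the log2 scale in ResKCs (SE 0.13, adjusted p = 5.9e-09 in edgeR) and by 0.98 in moKCs (SE 0.14, adjusted p = 3.8e-06), whereas ResKCs and moKCs differed by 0.26 (SE 0.14, adjusted p = 0.36). The level of *Hpgd* was thus ordered ResKC, moKC, CLEC4F- mac, with the first pair of neighbours not separated beyond its spread. Over all samples *Hpgd* correlated with *Ptgs1* (r 0.92, n = 35, a description across 6 groups), and its most alike genes were *Lilra5* (0.98), *Cd300ld* (0.97) and *Smpdl3a* (0.97). For *Ptgs1* these were *Cdh5* (0.98), *Ctsf* (0.97) and *Ephx1* (0.97).

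Of the 10 members, 3 (*Ptgs1*, *Hpgd* and *Hpgds*) did not overlap between ResKCs and CLEC4F- macs, against 16.0% of all genes, and 2 (*Ptgs1* and *Hpgd*) did not overlap between moKCs and CLEC4F- macs, against 8.16% of all genes. No member was without overlap between ResKCs and moKCs, where 3.21% of all genes were.

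Of the leukotriene genes, *Ltc4s* and *Lta4h* were called between ResKCs and CLEC4F- macs, in opposite directions. *Alox5* (chromosome 6, 116410077 to 116461178, minus strand), the lipoxygenase that starts leukotriene synthesis, was low everywhere, at 2.23 to 14.2 CPM in WD ResKCs, 1.42 to 5.68 CPM in moKCs and 2.20 to 6.81 CPM in CLEC4F- macs at 24 weeks. The log2 difference of ResKCs minus CLEC4F- macs was 0.60 (SE 0.40, adjusted p = 0.26 in edgeR) and that of ResKCs minus moKCs was 1.12 (SE 0.43, adjusted p = 0.15). Its partner *Alox5ap* (chromosome 5, 149264767 to 149288153, plus strand), the protein that presents arachidonic acid to it, was at 43.4 to 72.4 CPM in WD ResKCs and at 34.0 to 82.6 CPM in CLEC4F- macs, with a log2 difference of 0.05 (SE 0.21, adjusted p = 0.88). In moKCs, *Alox5ap* was at 92.6 CPM in replicate 1, and the others lay between 33.8 and 56.5 CPM.

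*Lta4h* (chromosome 10, 93453411 to 93484875, plus strand), the hydrolase of the leukotriene B branch, had 45.0, 50.2 and 56.2 CPM in WD ResKCs and 54.6, 66.5 and 74.6 CPM in CLEC4F- macs (lowest, median, highest), and 5 of the 6 CLEC4F- samples lay above all ResKC samples. The 5 moKC samples, at 48.7 to 57.0 CPM, overlapped with ResKCs. *Lta4h* was higher in CLEC4F- macs than in ResKCs (log2 difference -0.39, SE 0.08, adjusted p = 0.00039 in edgeR) and than in moKCs (-0.35, SE 0.09, adjusted p = 0.0045). *Ltc4s* (chromosome 11, 50236461 to 50238616, minus strand), the synthase of the cysteinyl leukotriene branch, ran the other way. It had 8.51, 12.3 and 29.8 CPM in WD ResKCs and 2.08, 3.98 and 10.9 CPM in CLEC4F- macs (lowest, median, highest), and 5 of the 6 CLEC4F- samples lay below all ResKC samples. The moKC samples had 13.7, 7.05, 6.97, 6.52 and 8.20 CPM, within or below the ResKC range. *Ltc4s* was higher in ResKCs than in CLEC4F- macs by 1.67 on the log2 scale (SE 0.38, adjusted p = 0.00084 in edgeR), and for moKCs minus CLEC4F- macs the difference was 0.84 (SE 0.40, adjusted p = 0.16), which rose to 1.27 (adjusted p = 0.022) without CLEC4F- replicate 6. The genes most like *Ltc4s* over the 35 samples were *Lbp* (r 0.88), *Pmp22* (0.84) and *Ms4a8a* (0.84), and those most like *Lta4h* were *Cd200* (0.82), *Cnn2* (0.80) and *Coro1a* (0.79). For *Alox5* the likeness was weaker, with 0.61 for *Ptpa* as the highest.

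**Figure D2:**
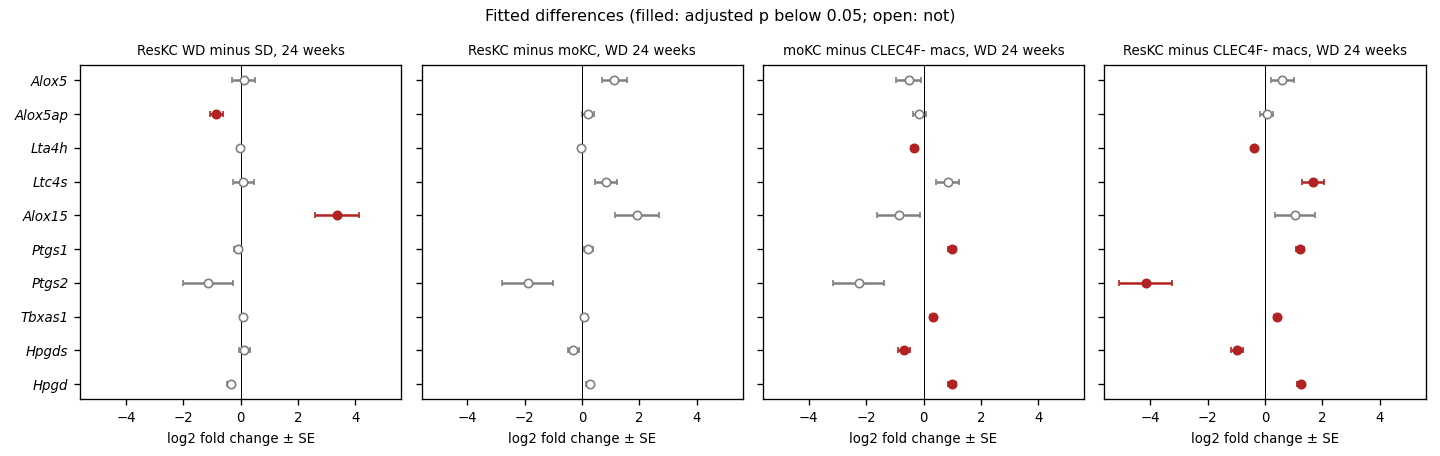
Fitted log2 fold changes (points) with their SE (bars) for the 10 genes in 4 comparisons, filled where the adjusted p of edgeR was below 0.05. Between ResKCs and CLEC4F- macs 7 are filled, between ResKCs and moKCs 0.

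The second question was whether the WD changes these genes within ResKCs. At 24 weeks, 2 members were called, *Alox15* higher and *Alox5ap* lower on the WD, where 8.71% of all genes were called (4.84% higher and 3.87% lower), and *Alox15* was the 1 member past the log2 fold limit of 1 (3.35% of all genes). No member was without overlap between the diets at 24 weeks (4.11% of all genes) or at 12 weeks (0.499%). At 12 weeks, edgeR called 0 members, where 0.0373% of all genes were called. DESeq2 and limma-voom called 0 as well, and 1 member was under an unadjusted p of 0.05, as were 8.73% of all genes. The median log2 difference of the members at 24 weeks was 0.03 against 0.00 over all genes tested.

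*Alox15* (chromosome 11, 70344152 to 70352031, minus strand) encodes the lipoxygenase of resident macs that makes hydroxylated fatty acids and lipoxin precursors. SD ResKCs at 24 weeks had *Alox15* at 3.25, 6.68 and 16.4 CPM (lowest, median, highest) and WD ResKCs at 14.1, 60.3 and 244 CPM, and 5 of the 6 WD samples lay above all SD samples. *Alox15* was higher on the WD by 3.36 on the log2 scale (SE 0.77, adjusted p = 0.0063 in edgeR), and by 2.72 (adjusted p = 0.027) without WD replicate 4, the highest sample. At 12 weeks, WD ResKCs had 4.79, 8.54, 1.57, 20.1 and 41.7 CPM, against 0 to 15.0 CPM on the SD, with a log2 difference of 1.67 (SE 0.76, adjusted p = 0.54), which was 0.86 without WD replicate 5 and 2.29 without SD replicate 3. From 12 to 24 weeks on the WD, the log2 difference was 2.51 (SE 0.79, adjusted p = 0.071). The diet effects at the 2 times differed by 1.69 on the log2 scale (adjusted p = 0.50), so the *Alox15* response was not shown to differ between 12 and 24 weeks.

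WD ResKC replicates 4 to 6, which are of the second naming scheme, had the most *Alox15* (244, 70.9 and 126 CPM), whereas the SD group of that time holds only first-scheme names. Within the first scheme, the 3 WD samples had 21.3, 49.8 and 14.1 CPM against 3.25 to 16.4 CPM in the 6 SD samples, and the second scheme holds no SD sample at 24 weeks and gives no such value. With the scheme as a covariate, the diet difference of *Alox15* was 2.56 on the log2 scale (adjusted p = 0.045). Recruited macs on the WD also had more than the SD ResKC median, with 20.4, 11.7, 15.2, 46.8 and 22.0 CPM in moKCs and 11.1, 30.6 and 85.4 CPM in CLEC4F- macs (lowest, median, highest). Neither was called against WD ResKCs, with log2 differences of ResKCs minus moKCs of 1.92 (SE 0.77, adjusted p = 0.18) and of ResKCs minus CLEC4F- macs of 1.06 (SE 0.70, adjusted p = 0.27).

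The genes most like *Alox15* over the 35 samples were *Slpi* (r 0.93), *Padi4* (0.90) and *Serpinb2* (0.88). *Slpi* was at 90.8 CPM (mean) in WD ResKCs and 7.34 CPM in SD ResKCs at 24 weeks. *Alox15* is also a hallmark of large peritoneal macs, and a list of 8 genes of these cells was therefore added after these values had been seen (*Gata6*, *Prg4*, *Selp*, *Garnl3*, *Tgfb2*, *Icam2*, *F5* and *Naip1*). All 8 were detected, and their sum was 57.8 to 107 CPM in SD and 115 to 283 CPM in WD ResKCs at 24 weeks, without overlap. The genes of the list did not move alike. *Prg4* was at 11.4, 26.3 and 107 CPM in WD ResKCs and at 1.88, 2.56 and 6.60 CPM in SD ResKCs (lowest, median, highest). The SD and WD means were 6.16 and 28.9 CPM for *F5* and 0.945 and 11.8 CPM for *Selp*. *Icam2* (36.7 and 36.4 CPM) and *Naip1* (31.6 and 31.9 CPM) had like means on both diets, and *Garnl3* (5.67 and 7.86 CPM) overlapped. *F5* is also a hepatocyte gene, and the sum of 8 hepatocyte genes (8 of 8 past the filter) ranged from 338 to 1140 CPM in SD samples and from 923 to 2745 CPM in WD samples. *Tgfb2* had means of 0.473 and 4.42 CPM. *Gata6*, the defining transcription factor of peritoneal macs, was at or under 3.08 CPM in every group. Its means in ResKCs at 24 weeks were 0.286 CPM on the SD (0 to 0.649 CPM) and 1.29 CPM on the WD (0 to 3.08 CPM). The highest values were in WD replicates 6 and 4 (3.08 and 2.56 CPM). The sum was highest in WD replicate 4 (283 CPM), which was also highest in *Alox15*. In CLEC4F- macs it was 53.0 to 120 CPM, with the highest values in replicates 5 and 6 (108 and 120 CPM), which were also the highest in *Alox15* (85.4 and 83.0 CPM). In moKCs, by contrast, the sum was highest in replicate 1 (114 CPM, *Alox15* 20.4 CPM). Replicate 4 of moKCs had the most *Alox15* (46.8 CPM) with a sum of 87.0 CPM. *Icam2* and *Naip1*, with means of 40.8 and 19.5 CPM in moKCs, make up much of this sum. *Prg4* was highest in moKC replicate 4 (13.4 CPM, others 3.42 to 6.26 CPM). *Selp* was highest in moKC replicate 2 (8.97 CPM) and *Gata6* in moKC replicate 1 (2.00 CPM). Pearson r of *Alox15* with the sum, both on the log2 scale, was 0.90 in WD ResKCs at 24 weeks and 0.84 in CLEC4F- macs. It was 0.45 and 0.33 in SD ResKCs at 12 and 24 weeks, -0.41 in WD ResKCs at 12 weeks and -0.26 in moKCs. In WD ResKCs at 12 weeks, replicate 5 had the most *Alox15* and also the most *Prg4* (7.33 CPM) and *Selp* (2.47 CPM). *Gata6* was highest in replicate 4 of that group (0.722 CPM). The part of peritoneal macs in the *Alox15* difference was not tested. Summed eosinophil genes (2 of 5 past the filter) were at 3.75 to 9.38 CPM in SD and 8.33 to 15.9 CPM in WD ResKCs at 24 weeks. They were at 26.3 to 45.5 CPM in moKCs and 18.7 to 41.8 CPM in CLEC4F- macs, and the part of eosinophils was not tested either. With the hepatocyte genes as a covariate, the diet difference of *Alox15* at 24 weeks was 3.74 on the log2 scale (adjusted p = 0.0026 in edgeR).

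**Figure D3:**
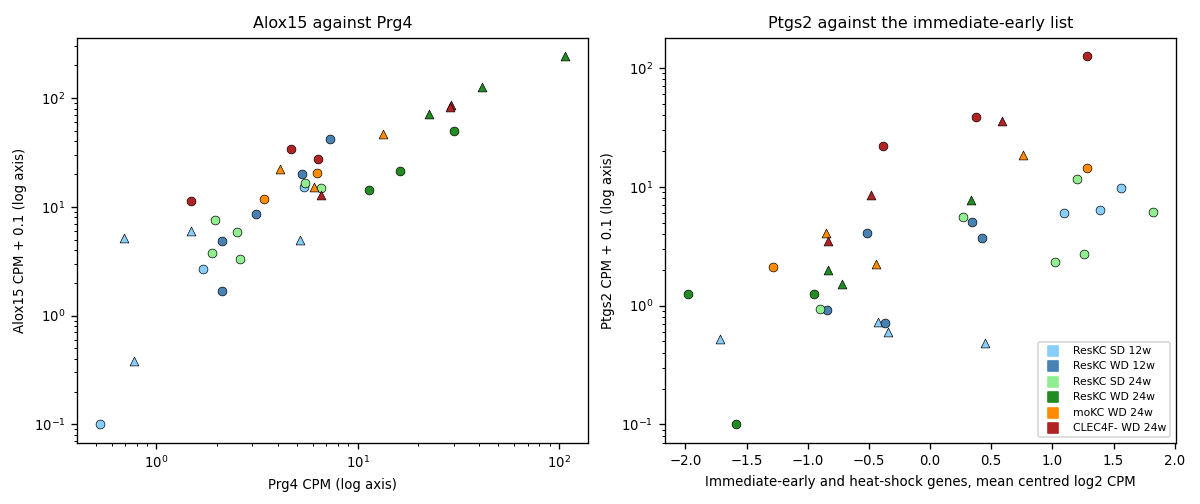
Left, Alox15 against Prg4, both in CPM on log axes, and right, Ptgs2 in CPM (log axis) against the mean centred log2 CPM of 10 immediate-early and heat-shock genes; 0.1 was added to the CPM on both vertical axes, each point is 1 of 35 samples, colours are groups, and circles and triangles are the first and second naming scheme. The sample highest in Alox15 (244 CPM) is highest in Prg4 (107 CPM), and the sample highest in Ptgs2 (126 CPM) is a CLEC4F- mac sample. Prg4 is 1 of the 8 peritoneal mac genes added after these values had been seen. Of the same list, Icam2 (36.7 and 36.4 CPM) and Naip1 (31.6 and 31.9 CPM) had like means in SD and WD ResKCs at 24 weeks.

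*Alox5ap* was lower on the WD at 24 weeks. SD ResKCs had 68.5, 107 and 138 CPM and WD ResKCs 43.4, 61.4 and 72.4 CPM (lowest, median, highest), and 5 of the 6 SD samples lay above all WD samples. The log2 difference was -0.85 (SE 0.21, adjusted p = 0.012 in edgeR). It was not called when the mean of the immediate-early and heat-shock genes was a covariate (-0.57, adjusted p = 0.16), nor, at the limit, when the naming scheme was one (-0.70, adjusted p = 0.050). The sum of these genes was 2587 to 13824 CPM in SD and 1050 to 4945 CPM in WD ResKCs at this time, and their part was not tested beyond this covariate. The genes most like *Alox5ap* were *Itgb7* (r 0.82), the transcription factor gene *Klf2* (0.81) and *Tmcc1* (0.80). At 12 weeks, the 5 WD samples had 117, 52.4, 68.7, 78.6 and 89.2 CPM against 92.3 to 118 CPM on the SD (log2 difference -0.31, SE 0.22, adjusted p = 0.72).

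The other members gave no called diet difference. *Hpgd* was at 1984, 2588 and 2843 CPM in SD and 1676, 2059 and 2145 CPM in WD ResKCs at 24 weeks (lowest, median, highest), and 5 of 6 SD samples lay above all WD samples. Its log2 difference was -0.35 (SE 0.13, adjusted p = 0.089 in edgeR), and it was -0.35 (adjusted p = 0.024) when the compared groups were fitted alone. *Ptgs2* was at 0.842 to 11.5 CPM on the SD and 0 to 7.63 CPM on the WD (log2 difference -1.13, SE 0.88, adjusted p = 0.45). This value had no stable direction, being 1.09 (adjusted p = 0.35) with the immediate-early covariate and between -2.08 (without WD replicate 5) and -0.65 (without SD replicate 3) with 1 sample left out. For *Alox5*, *Ltc4s*, *Lta4h*, *Ptgs1*, *Hpgds* and *Tbxas1* the log2 differences at 24 weeks lay between -0.08 and 0.13. Between 12 and 24 weeks, edgeR called 0 members on the SD, where 0% of all genes were called, and 0 on the WD, where 3.26% of all genes were. At an unadjusted p under 0.05 these counts were 0 on the SD (9.0% of all genes) and 2 on the WD (18.8%), and no member was without overlap on the SD (0.268% of all genes) or on the WD (3.33%). The difference of the diet effects was called for 0 members (0.283% of all genes), and 0 members had an unadjusted p under 0.05 for it (14.1% of all genes). DESeq2 and limma-voom called 0 members in these 3 comparisons.

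Around the members, 58 further genes of the pathway were listed, of which 40 passed the filter. The alternative settings used for the members were not applied to these single genes. The list called arachidonate supply holds phospholipase genes and also *Acsl4*, *Lpcat2*, *Lpcat3* and *Mboat7*, and it is no measure of arachidonic acid release. Against CLEC4F- macs, genes of this list were mostly higher in WD ResKCs, 8 of 11 being higher and 1 lower. The list median was 0.49 on the log2 scale against -0.02 over all genes. These counts, and those of the other lists in this comparison, stand beside 17.0% of all genes called higher and 16.1% called lower. *Pla2g16*, a phospholipase gene best known from adipose tissue, was at 48.5 to 64.0 CPM in ResKCs and 18.8 to 29.4 CPM in CLEC4F- macs (log2 difference 1.22, SE 0.13, adjusted p = 9.5e-09 in edgeR). *Pla2g4c*, a cytosolic phospholipase gene, was higher in ResKCs by 2.22 (SE 0.58, adjusted p = 0.0029) but at most 5.35 CPM. *Pla2g7*, which inactivates platelet-activating factor, was the 1 supply gene that was lower in ResKCs (-0.51, adjusted p = 0.00063).

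Of the 9 other synthesis genes that passed, 3 were higher and 1 was lower in ResKCs. *Ptgis*, the prostacyclin synthase, was at 35.1, 49.3 and 62.9 CPM in ResKCs and 0.582, 3.29 and 7.59 CPM in CLEC4F- macs (lowest, median, highest), a log2 difference of 3.79 (SE 0.41, adjusted p = 8.8e-09). It was also higher in ResKCs than in moKCs (4.77 to 31.2 CPM) by 1.73 (SE 0.39, adjusted p = 0.0091) and in moKCs than in CLEC4F- macs by 2.06 (SE 0.42, adjusted p = 0.00049), so all 3 populations differed. *Aloxe3*, an epidermis-type lipoxygenase gene, was low but higher in ResKCs than in CLEC4F- macs (2.37, SE 0.45, adjusted p = 9.5e-05) and than in moKCs (2.02, SE 0.47, adjusted p = 0.013).

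Breakdown and transport genes split evenly between ResKCs and CLEC4F- macs, with 4 higher and 4 lower of 13. *Ephx1*, an epoxide hydrolase gene, was higher in ResKCs (log2 difference 1.94, SE 0.21, adjusted p = 5.7e-09 in edgeR) and in moKCs (1.53, adjusted p = 3.2e-06) than in CLEC4F- macs. *Cyp4f18*, which inactivates leukotriene B by hydroxylation, was at 116, 183 and 215 CPM in CLEC4F- macs and 29.9, 33.8 and 43.2 CPM in WD ResKCs (lowest, median, highest; log2 difference -2.34, SE 0.17, adjusted p = 1.9e-12). *Dpep2*, the dipeptidase that trims cysteinyl leukotrienes, was at 31.0 CPM (median) in CLEC4F- macs and at 5.23 CPM in WD ResKCs (-2.39, SE 0.45, adjusted p = 8.6e-05). *Ptgr1*, a prostaglandin and leukotriene B reductase gene, was lower in ResKCs as well (-1.54, SE 0.33, adjusted p = 0.00037).

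Receptor genes were lower in ResKCs for 4 of 7 and higher for 1. The prostacyclin receptor gene *Ptgir* was at 1.83 to 9.57 CPM in CLEC4F- macs and 0 to 3.01 CPM in WD ResKCs (log2 difference -3.06, SE 0.85, adjusted p = 0.0050 in edgeR). The leukotriene B receptor gene *Ltb4r1* was at 1.97 to 17.6 CPM in CLEC4F- macs and 0.383 to 1.46 CPM in ResKCs (-2.95, SE 0.53, adjusted p = 3.6e-05), and the prostaglandin E receptor gene *Ptger4* differed by -1.44 (SE 0.39, adjusted p = 0.0037). Between moKCs and CLEC4F- macs these 3 were also lower, by log2 differences of -2.81 for *Ptgir* (adjusted p = 0.027), -2.60 for *Ltb4r1* (adjusted p = 0.00080) and -1.21 for *Ptger4* (adjusted p = 0.037).

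**Figure D4:**
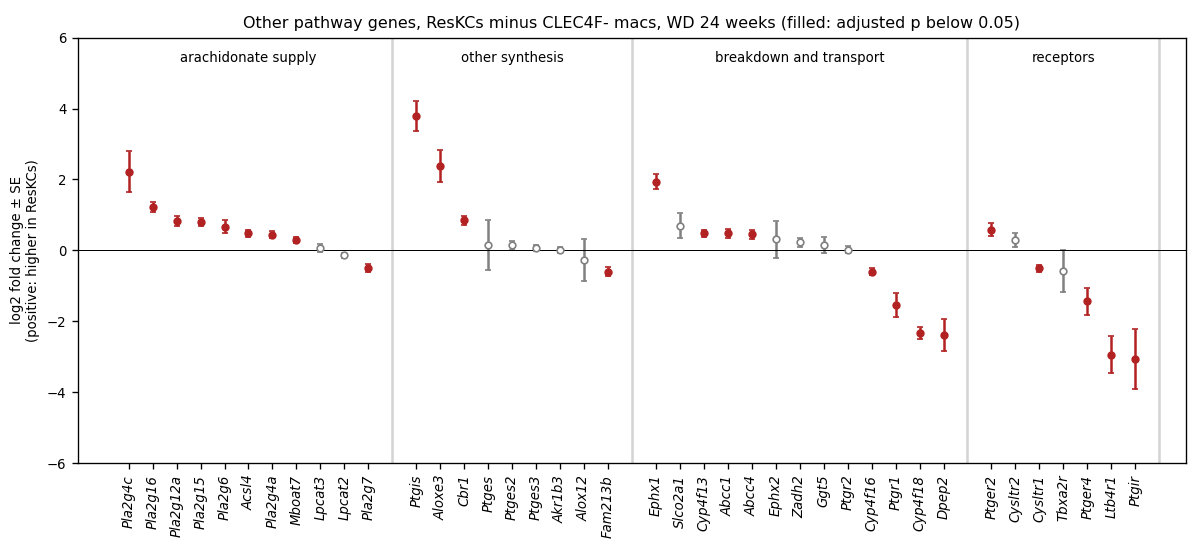
Log2 fold changes with SE (positive values are higher in ResKCs) of the 40 other pathway genes that passed the filter, WD ResKCs minus CLEC4F- macs at 24 weeks, in 4 lists and filled where the adjusted p of edgeR was below 0.05. Most arachidonate supply genes are above 0, and the lowest values are the receptor genes Ptgir and Ltb4r1.

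In the diet comparison of ResKCs at 24 weeks, 4 of these 40 genes were called, 1 higher and 3 lower, which is near the 8.71% of all genes called in this comparison. *Dpep2* was at 0.452, 0.940 and 1.88 CPM on the SD and 1.81, 5.23 and 11.1 CPM on the WD (lowest, median, highest), a log2 difference of 2.44 (SE 0.50, adjusted p = 0.0025 in edgeR), and it was higher at 24 than at 12 weeks on the WD (2.19, adjusted p = 0.022). The thromboxane receptor gene *Tbxa2r* (log2 difference -1.88, SE 0.60, adjusted p = 0.044) and *Alox12*, the platelet-type lipoxygenase gene (-1.95, SE 0.58, adjusted p = 0.032), were lower on the WD, with SD medians of 4.04 and 2.54 CPM. *Pla2g16* was lower on the WD as well, with a log2 difference of -0.53 (SE 0.13, adjusted p = 0.0099). Whether these 4 calls hold with the naming scheme or the immediate-early genes as a covariate was not tested.

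Exons of 4 members overlap a gene on the opposite strand, and the strand setting of the counting is not given in the sources used here. The overlap was 189 bases for *Alox5ap*, 268 for *Ltc4s*, 148 for *Ptgs1* and 144 for *Tbxas1*, and the opposite gene had at most 38 counts in any sample.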

How the data were processed

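RNA-seq of sorted liver macs was analysed in 35 samples, grouped by population, diet and time as titles and descriptions give them. The authors prepared TruSeq libraries, mapped single reads to mm10 with HISAT2 2.2.0 and used featureCounts 2.0.0 per gene (versions from the submitters' processing notes), and they deposited raw read counts, unnormalised, under gene symbols. Annotation, strand setting and handling of multi-mapped reads: not given in the sources used here. The study gives its sample numbers as mice, while the labels tie no sample to a single mouse and do not say whether mice were pooled; p-values measure the spread between these samples.

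Genes with over 1 CPM in 5 or more samples entered the tests (13421 genes), TMM factors were computed, and 1 model of 6 group means was fitted to all samples with edgeR 4.0.16 (quasi-likelihood test, Benjamini-Hochberg adjustment) in R 4.3.3. A gene was called at an adjusted p under 0.05; the study's definition, with an absolute log2 fold change over 1 besides, was an alternative. For correlations, log2 CPM with 2 as the prior count was used. The members and gene lists were chosen with earlier results of these data known. Named were all 10 members, up to 3 other pathway genes past both limits per direction and comparison, and up to 3 genes of highest Pearson r with each member; *Pla2g16* in the diet comparison and *Pla2g7* fall outside this rule and were chosen after their values were seen. Exon lengths and positions are from GENCODE M21 (GRCm38), which the authors may not have used, and promoters from RefSeq (GRCm38.p6). Alternatives, run for the members and for counts over all genes, were library size alone, DESeq2 1.42.0, limma-voom (limma 3.58.1), no filter, replicate block, covariates for the immediate-early list, hepatocyte genes or the naming scheme, the compared groups alone, and each replicate left out. The fit was tested on simulated counts in which 200 of 13421 genes were changed 4-fold, of which 172 (86%) were recovered for the 24-week diet comparison, 176 (88%) for ResKCs against CLEC4F- macs and 172 (86%) for ResKCs against moKCs. In the same order, 6, 6 and 13 unchanged genes were called. Smaller changes, such as those of *Tbxas1*, *Lta4h* and *Hpgds*, were not simulated. The depth of 11568590 to 15163845 counts gives low precision to genes of a few CPM such as *Ptgs2* and *Alox5*.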

Additional observations from a re-analysis of the deposited data

Results flagged for a closer look

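In each of the 60 combinations of member and group, the highest and lowest samples were compared with the rest by Dixon's criterion on linear CPM. About 1 in 20 groups of normally distributed values meets it by chance, a share that need not hold for CPM. The criterion was met by 9 combinations. For *Ltc4s*, 1 sample stood above the others in 3 groups, at 40.5 CPM in WD ResKCs at 12 weeks (replicate 1, others 9.66 to 16.4 CPM), 13.7 CPM in moKCs (replicate 1, others 6.52 to 8.20 CPM) and 10.9 CPM in CLEC4F- macs (replicate 6, others 2.08 to 4.89 CPM). For *Ptgs2*, this was so in WD ResKCs at 24 weeks with 7.63 CPM (replicate 5, others 0 to 1.88 CPM) and in CLEC4F- macs with 126 CPM (replicate 1, others 3.36 to 38.9 CPM). *Alox15* stood out with 15.0 CPM in SD ResKCs at 12 weeks (replicate 3, others 0 to 5.90 CPM). In the same group, *Hpgds* had 73.4 CPM in replicate 4 (others 36.8 to 52.6 CPM) and *Tbxas1* had 341 CPM in replicate 6 (others 279 to 305 CPM). *Hpgd* was low in 1 sample of WD ResKCs at 12 weeks, with 1645 CPM in replicate 2 against 2432 to 2728 CPM in the others.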

How the results depend on the processing

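The counts of called members kept within 1.5 times of those reported under library size alone, DESeq2, limma-voom and no filter. At 24 weeks, the 2 diet calls became 1 with the immediate-early covariate, 1 with the naming scheme covariate and 1 with the fold limit, *Alox15* being the remaining one. Between ResKCs and CLEC4F- macs, the 7 became 4 with the fold limit (*Ptgs1*, *Hpgd*, *Ltc4s* and *Ptgs2*). Between moKCs and CLEC4F- macs, the 5 became 3 when these groups were fitted alone, without *Hpgds* (adjusted p = 0.088 in edgeR) and *Tbxas1* (adjusted p = 0.069), and 0 with the fold limit. From 12 to 24 weeks on the WD, 0 became 1 with the immediate-early covariate and 1 with the hepatocyte covariate (*Alox15*, adjusted p = 0.043 and 0.040). With each replicate left out in turn, the count ranged from 3 to 6 between moKCs and CLEC4F- macs, the lowest without moKC replicate 3 and the highest without CLEC4F- replicates 4 or 6, and stayed at 2 for the diet at 24 weeks, at 7 for ResKCs against CLEC4F- macs and at 0 elsewhere. No called member changed sign in these alternatives. Over all genes, the 1169 called for the diet at 24 weeks became 469 with the immediate-early covariate, the 5 for the diet at 12 weeks ranged from 0 to 86, the 401 between ResKCs and moKCs were 232 at the lowest (without moKC replicate 4), the 438 over time on the WD were 126 at the lowest (without 12-week WD replicate 5), the 0 over time on the SD became 16 with DESeq2, and the 38 for the difference of diet effects ranged from 8 to 184, so the percentages beside the members' counts move with these settings. A replicate block gave 2, 7, 0 and 5 called members in the 24-week diet comparison and the 3 population comparisons, as without it; same-numbered samples had mean correlations of deviations of -0.11 to 0.12, with 5 of 6 pairs best with their own number at most (ResKCs and CLEC4F- macs), and the labels do not say that the numbers pair samples. The cause of these changes was not tested. Members of a few CPM are limited by depth, 3 counts being up to 0.263 CPM.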
